A study of Mus musculus with 4 samples.

Results

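Megakaryocytes are the large polyploid blood cells that build and release platelets. In this single-cell RNA series 157 of the 33551 cells in 2 fetal libraries labelled E18.5 met a rule that picks them, out of 43351 cells in the whole series. The rule took cells with at least 500 detected genes and, in raw transcript counts (UMIs), at least 3 of Pf4, at least 1 of Itga2b, at least 1 of Gp9 and Ppbp together and at most 5 of C1qa, C1qb and C1qc together, the last to keep out macrophages. Levels of these genes in the cells are therefore a description of how they were chosen.

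Of the 157 cells, 66 came from E18.5 fetuses carried by a Cyp27a1-/- mother (null mother) and 91 from E18.5 fetuses carried by a Cyp27a1+/- mother (heterozygous mother). All fetuses were labelled Cyp27a1-/-, so the comparison is of the mother's genotype and not of the fetus's. Cyp27a1 encodes sterol 27-hydroxylase, a mitochondrial enzyme that oxidises the cholesterol side chain. The title of the library from the heterozygous mother ends in 4_WT and that of the library from the null mother in 3_KO, whereas the genotype label is Cyp27a1-/- for both. Each group was 1 library, with no statement of how many fetuses were joined in it, so nothing between them could be tested, and the 95% intervals given (exact Poisson for counts, Clopper-Pearson for shares) cover counting error only. In the cells the rule picked, Cyp27a1 had 92 UMIs with the null mother and 111 with the heterozygous mother, a 3' tag that does not check the deletion. Tissue was minced, digested with collagenase and dispase, strained and treated with NH4Cl to lyse red cells before loading on the 10x Chromium system.

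Megakaryocytes arise from blood stem cells and from progenitors shared with the red cell lineage, and in the mouse fetus the liver is a main site where they form. As they mature they copy their DNA without dividing, fill alpha granules with secreted proteins such as the chemokine platelet factor 4 (Pf4), place adhesion receptors for collagen, fibrinogen and von Willebrand factor on their surface, and then extend tubulin-based shafts from which platelets pinch off. GATA1 with its partner FOG1 (Zfpm1) and ETS factors such as FLI1 are known regulators of megakaryocyte genes.

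The 250 bases before the start of 4 of the leading genes are given because those regulators are known to prefer certain letters, and these were searched for. Pf4 and Ppbp, 2 chemokine genes of the platelet granule, lie next to each other on chromosome 5 with 2371 bases between the end of Ppbp and the start of Pf4. The sequences are those of RefSeq on GRCm38.p6, 5′ to 3′ on the strand of the gene, and capitals mark motifs on either strand. The GATA motif searched was GATA with A or T before it and A or G after it. The ETS motif searched was GGAA with C and then A or C before it. No marked motifs overlap one another.
Pf4, chr5:90772185-90772434, plus strand: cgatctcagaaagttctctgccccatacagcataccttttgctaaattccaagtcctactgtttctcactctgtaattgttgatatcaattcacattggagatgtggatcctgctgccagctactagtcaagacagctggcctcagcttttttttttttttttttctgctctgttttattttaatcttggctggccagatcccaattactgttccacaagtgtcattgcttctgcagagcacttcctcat
Ppbp, chr5:90768268-90768517, plus strand: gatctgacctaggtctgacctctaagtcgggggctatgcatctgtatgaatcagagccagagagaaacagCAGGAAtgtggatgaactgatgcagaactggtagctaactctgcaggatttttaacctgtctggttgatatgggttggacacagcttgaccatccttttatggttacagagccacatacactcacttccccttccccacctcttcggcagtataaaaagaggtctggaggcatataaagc
Itga2b, chr11:102469884-102470133, minus strand: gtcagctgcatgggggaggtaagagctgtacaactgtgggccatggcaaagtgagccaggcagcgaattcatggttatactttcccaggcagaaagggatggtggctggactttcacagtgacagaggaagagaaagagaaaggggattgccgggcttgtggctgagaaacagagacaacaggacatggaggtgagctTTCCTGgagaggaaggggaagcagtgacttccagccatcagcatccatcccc
Gp5, chr16:30310782-30311031, minus strand: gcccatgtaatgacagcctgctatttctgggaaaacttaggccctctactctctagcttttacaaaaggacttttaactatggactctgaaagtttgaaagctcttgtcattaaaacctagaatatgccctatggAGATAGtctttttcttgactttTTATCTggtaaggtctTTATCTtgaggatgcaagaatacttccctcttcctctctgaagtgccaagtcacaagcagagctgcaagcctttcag
Pf4 held neither motif in this window. Ppbp held 1 ETS motif, with its first base 180 bases before the start, and Itga2b held 1, on the opposite strand, 52 bases before it. Gp5, a subunit of the receptor for von Willebrand factor, held 3 GATA motifs at 115, 93 and 77 bases before the start. Of the 15 genes that led these cells over other cells, 12 had a promoter in the table; 3 of those 12 held a GATA motif and 7 an ETS motif, where 26.5% and 35.1% of all 32851 promoters of this length did. These are matches of letters, not sites.

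The library of the null mother held 16517 cells and 118054232 UMIs, that of the heterozygous mother 17034 cells and 97894048 UMIs. Both are labelled lung, but the lung factor gene Nkx2-1 had 1 UMI with the null mother and 4 with the heterozygous mother, against 2804 with the null mother and 1935 with the heterozygous mother at E14.5. Albumin, a hepatocyte gene, stood at 8344 CPM (counts scaled to a total of 1000000) with the null mother and 2905 with the heterozygous mother, so by these markers both libraries were liver-like. The same rule found 2 cells with the null mother and 6 with the heterozygous mother at E14.5, too few to describe.

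The E18.5 libraries shared 164 cell barcodes with each other, and some of the largest megakaryocytes were among them. The megakaryocyte with the most UMIs, 139769 with 7285 of Pf4 in the library of the heterozygous mother, had its barcode also in the 3 other libraries with 819 to 871 UMIs, of which 28 to 39 were Pf4. The copy in the library of the null mother, with 819 UMIs and 29 of Pf4, met the rule and is 1 of its 66 cells. Of the null mother's megakaryocytes, those of 113411, 102098 and 79743 UMIs likewise had copies of 558 to 771 UMIs in other libraries, each with 17 to 34 Pf4 UMIs, or 0.582% to 0.700% of the UMIs of the large cell. Leaving out the 1 copy among the members kept the share ratio inside its interval and left the division by Ppbp described further on at 227 genes higher and 81 lower, against 83 lower with it.

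Megakaryocytes had more UMIs per cell than the cells around them, but the rule asks for minimum raw counts and so favours deep cells. The 37 cells that failed only on Itga2b had a median of 2850 UMIs. UMIs per megakaryocyte had a lowest, median and highest value of 819, 21934 and 113411 with the null mother, and of 774, 10753 and 139769 with the heterozygous mother. Other cells with 500 genes had a median of 5850 UMIs with the null mother and 5000.5 with the heterozygous mother. The 66 cells of the null mother held 1.58% of the UMIs of their library while being 0.400% of its cells, and the 91 of the heterozygous mother 1.49% while being 0.534%.

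Pf4 was present across a very wide range. Its level per 10000 UMIs had a lowest, median and highest value of 1.37, 313 and 743 with the null mother, and of 2.64, 163 and 689 with the heterozygous mother. These few cells held 95.5% of all Pf4 UMIs of the library with the null mother and 90.0% with the heterozygous mother. Itga2b, the alpha chain of the fibrinogen receptor, ran from 0.602 through a median of 6.98 to 122 per 10000 with the null mother, and from 0.469 through 6.63 to 171 with the heterozygous mother. Gp9, a subunit of the von Willebrand factor receptor, was seen in 61 of 66 cells with the null mother and 79 of 91 with the heterozygous mother. Ppbp, the precursor of a neutrophil-attracting platelet chemokine, was seen in 40 of 66 and had a median of 1.12 and a highest value of 185 per 10000 with the null mother; it was seen in 54 of 91, with 1.23 and 135 per 10000, with the heterozygous mother. The rule required Pf4 and Itga2b in every cell, so of these genes only Gp9 or Ppbp could be absent. Ppbp was seen in fewer cells than Gp9, and the ranges of both libraries overlapped throughout.

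**Figure D1:**
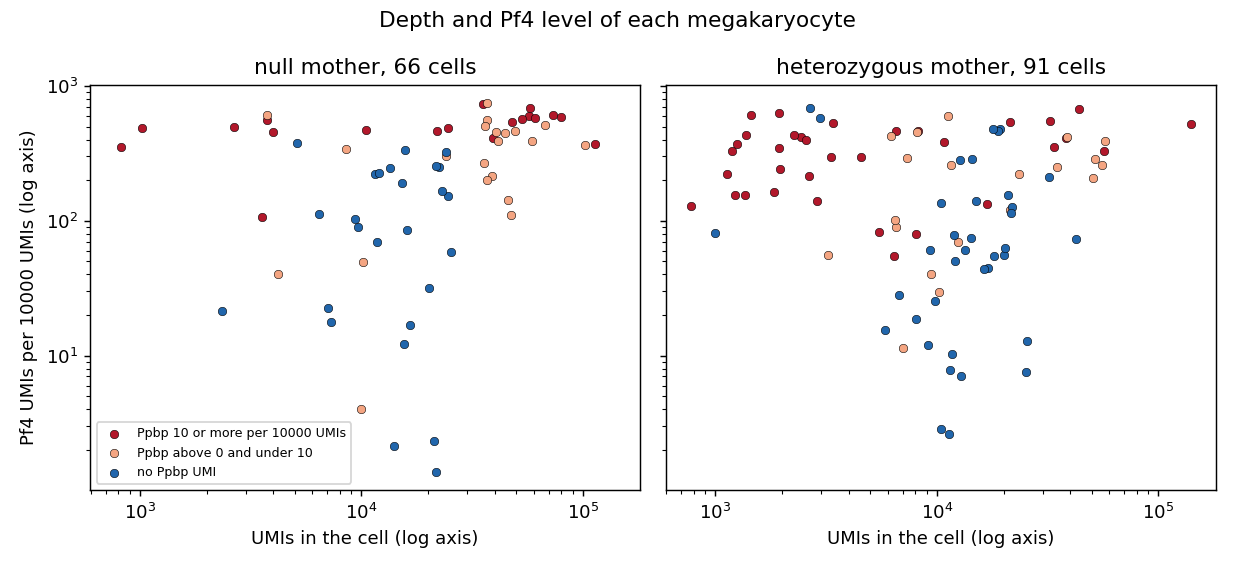
Each point is 1 megakaryocyte, with its UMIs on the x axis and Pf4 UMIs per 10000 on the y axis, both on log axes, in the library of the null mother (left, 66 cells) and of the heterozygous mother (right, 91 cells); colours give the Ppbp class. Ppbp-rich cells had a median Pf4 of 495 per 10000 with the null mother and 351 with the heterozygous mother. In Ppbp-free cells the medians were 96.7 and 61.2 in the same order, and the ranges of the classes overlapped. More of the Ppbp-rich cells are small with the heterozygous mother, where their median was 3099.5 UMIs against 35340 with the null mother.

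Cells lay on both sides of each limit of the rule. Of the members, 7 had 3 to 5 Pf4 UMIs, 21 had a single Itga2b UMI, 18 had a single UMI of Gp9 and Ppbp together, 9 had 1 to 5 C1q UMIs and 5 had under 600 genes. Just outside, with every other condition met, stood 13 cells with 1 or 2 Pf4 UMIs, 37 with no Itga2b, 26 with neither Gp9 nor Ppbp, 1 with more C1q and 4 with fewer genes. Of the 37 cells without Itga2b, 8 came from the null mother's library and 29 from that of the heterozygous mother. Apart from these, 303 cells had 3 or more Pf4 UMIs beside more than 5 C1q UMIs; their median Pf4 was 5 UMIs, whereas that of the megakaryocytes was 436.5 with the null mother and 102 with the heterozygous mother.

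Many genes of the megakaryocyte lists, the rule genes among them, were higher in these cells than in others. Counted as summed CPM over cells, 185 of 8427 genes compared, 2.2%, were at least 4-fold higher in megakaryocytes than in the other cells with 500 genes of the same library, in both libraries, and 171, 2.03%, were at least 4-fold lower. Of 119 genes in 7 lists of megakaryocyte function 105 were compared; 58 were 4-fold higher and 1, Sparc, was lower. Since the cells were chosen by 4 of these genes, which are among the 58, this is a description and no test.

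The leading genes apart from the rule genes included surface receptors and a granule GTPase. Treml1, a receptor of the granule membrane, stood at 1038 CPM in megakaryocytes against 0.771 CPM in other cells with the null mother, and at 851 against 1.28 with the heterozygous mother. Rab27b, a small GTPase of granule secretion, stood at 539 against 1.12 CPM with the null mother and at 571 against 2.23 with the heterozygous mother. Gp5 stood at 498 against 0.886 CPM with the null mother and at 479 against 1.44 CPM with the heterozygous mother, and the fibrinogen receptor's beta chain Itgb3 at 453 against 2.24 CPM with the null mother and at 550 against 3.34 CPM with the heterozygous mother. Lat, an adaptor of T cell and collagen receptor signalling, Timp3, an inhibitor of matrix proteases, F2rl2, a thrombin receptor, Gnaz, a G protein alpha subunit, and Plek, a substrate of protein kinase C, were also among the first 15, as were Mrvi1 and Rbpms2. Of these 15 genes 13 were in the lists, and of the first 40, 24, with the rule genes included in each count.

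By role, 10 of the 17 genes for granule cargo were 4-fold higher in both libraries, 12 of 20 for adhesion receptors and 11 of 15 for signalling receptors. The same held for 13 of 22 cytoskeletal genes, 5 of 11 for activation enzymes, 4 of 15 for transcription factors and 3 of 19 for granule formation and release. The rule genes are included in these counts by role. Several well-known platelet genes were low or at 0. Tubb1, the tubulin of the platelet's marginal band, reached 18.8 CPM with the null mother and 34.96 with the heterozygous mother. The ADP receptor gene P2ry12 had 1 UMI with the null mother and 0 with the heterozygous mother, the scavenger receptor Cd36 had 0 with the null mother and 1 with the heterozygous mother, and the growth factor gene Pdgfa had 0 in both. Sparc, a secreted matrix protein, stood at 3.75 CPM in the megakaryocytes against 96.9 in the other cells with the null mother, and at 0.686 against 89.6 CPM with the heterozygous mother.

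With each cell thinned to 2310 UMIs, 64 of 66 megakaryocytes with the null mother and 77 of 91 with the heterozygous mother were deep enough. Pf4 was then found in 96.9% (89.2 to 99.6) of cells with the null mother and 97.4% (90.9 to 99.7) with the heterozygous mother, at median depths before thinning of 22272 UMIs with the null mother and 12069 with the heterozygous mother. In B lineage cells, which should lack it, Pf4 was found in 1.93% of 931 cells with the null mother and 2.37% of 758 with the heterozygous mother, at medians of 5651 UMIs with the null mother and 5292.5 with the heterozygous mother. Unthinned, all megakaryocytes had it, as did 3.85% of B lineage cells with the null mother and 4.03% with the heterozygous mother. Rab27b was found in 65.6% of thinned megakaryocytes and 0.107% of B lineage cells with the null mother, and in 76.6% and 0.132% with the heterozygous mother. Rab27b, which the rule did not use, was thus found in a share of megakaryocytes well above that of B lineage cells.

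The transcription factors were set beside those of 3 other kinds of cell in the same libraries. These were early erythroid progenitors (755 with the null mother and 543 with the heterozygous mother), basophils and mast cells (44 and 69) and B lineage cells (1427 and 1316). Gata1, the factor of red cells and megakaryocytes, stood at 146 CPM in megakaryocytes of the null mother, against 103 in erythroid progenitors, 32.7 in basophils and mast cells and 12.5 in B lineage cells. With the heterozygous mother the values in the same order of cells were 121, 95.3, 65.0 and 9.70 CPM. Tal1, Gfi1b and Zfpm1, which act with Gata1 in both lineages, were shared with erythroid progenitors in the same way: Gfi1b, a repressor, had 123 CPM in megakaryocytes against 105 in erythroid progenitors with the null mother, and 108 and 90.4 with the heterozygous mother.

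Other factors set megakaryocytes apart from the erythroid progenitors. Fli1, the ETS factor, stood at 161 CPM in megakaryocytes and 1.97 in erythroid progenitors with the null mother, and at 191 and 1.34 CPM with the heterozygous mother. Meis1, a homeobox factor, stood at 115 and 0.992 CPM with the null mother. Mef2c, a MADS-box factor, stood at 594 CPM against 15.7 with the null mother, and at 629 against 14.9 with the heterozygous mother. Mef2c was also high in B lineage cells, at 256 CPM with the null mother and 305 CPM with the heterozygous mother. Gata2, a factor of progenitors and mast cells, was low in megakaryocytes, at 23.1 CPM against 427 in basophils and mast cells with the null mother, and at 37.0 against 713 CPM with the heterozygous mother. The progenitor genes Kit, at 4.83 CPM with the null mother and 13.7 CPM with the heterozygous mother, and Cd34, at 7.51 CPM with the null mother and 15.1 CPM with the heterozygous mother, were low too, and Slamf1 was the 1 gene of 6 in the progenitor list that was 4-fold higher than in other cells, at 42.4 against 0.824 CPM with the null mother and 45.2 against 0.899 CPM with the heterozygous mother.

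Megakaryocytes were 0.400% (0.309 to 0.508) of cells with the null mother and 0.534% (0.430 to 0.656) with the heterozygous mother, a ratio of 0.748 (0.536 to 1.04). Of cells with 500 genes they were 0.463% (0.358 to 0.588) with the null mother and 0.731% (0.589 to 0.897) with the heterozygous mother, a ratio of 0.633 (0.454 to 0.878). Leaving out haemoglobin-rich cells from that denominator gave 0.608 (0.434 to 0.847), and taking only cells of 5000 UMIs or more gave 57 of 8089 cells with the null mother and 67 of 6456 with the heterozygous mother, a ratio of 0.679 (0.468 to 0.981). The share was lower with the null mother by each of these counts, and the interval over all cells included 1. Whether the difference exceeds that between litters cannot be told from 1 library a group.

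The megakaryocytes could be divided along Ppbp. Cells with 10 or more Ppbp UMIs per 10000, here called Ppbp-rich, numbered 19 (28.8%, 18.3 to 41.3) with the null mother and 34 (37.4%, 27.4 to 48.1) with the heterozygous mother. Cells with no Ppbp UMI, here Ppbp-free, numbered 26 with the null mother and 37 with the heterozygous mother. The remaining 21 and 20 cells of the null and the heterozygous mother lay between. These classes were drawn after the values had been seen. Ppbp-rich cells had 54278 CPM of Pf4 with the null mother and 44037 with the heterozygous mother, against 13465 with the null mother and 12680 with the heterozygous mother in Ppbp-free cells. Gp9 was likewise higher, at 1302 CPM in Ppbp-rich against 241 in Ppbp-free cells with the null mother, and at 1444 against 234 CPM with the heterozygous mother. Pf4 and Gp9 chose the cells, and a Ppbp-free cell was a member only if it had Gp9. Among Ppbp-rich cells Gp9 was seen in 17 of 19 with the null mother and 24 of 34 with the heterozygous mother.

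Depth moved with the classes, and differently in the 2 libraries. Ppbp-rich cells had a lowest, median and highest depth of 819, 35340 and 113411 UMIs with the null mother and of 774, 3099.5 and 139769 with the heterozygous mother. Ppbp-free cells had 2350, 15446.5 and 25397 UMIs with the null mother and 992, 13396 and 42420 with the heterozygous mother. Ppbp-rich cells were therefore the deeper class in one library and the shallower class in the other. Of cells with at least 5000 UMIs, 13 of 57 with the null mother and 14 of 67 with the heterozygous mother were Ppbp-rich.

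Megakaryocyte genes were higher in Ppbp-rich than in Ppbp-free cells in both libraries. After leaving out the 21 members in which the gene list of another cell type passed 1% of UMIs, 18 Ppbp-rich cells were set against 19 Ppbp-free cells with the null mother, and 31 against 34 with the heterozygous mother. Ppbp chose the classes, and the other rule genes chose the cells, so all of them were left out of these counts. Of 1338 genes compared, 227, 17%, were at least 2-fold higher in Ppbp-rich cells in both libraries and 83, 6.2%, at least 2-fold lower. Of 73 genes of the megakaryocyte lists, 48 were 2-fold higher in both and 0 2-fold lower; 68 were higher in both by any amount. Their median log2 ratios were 1.35 with the null mother and 1.83 with the heterozygous mother, against 0.15 with the null mother and 0.15 with the heterozygous mother over all genes compared. With only cells of at least 5000 UMIs, 47 of 71 list genes were 2-fold higher, of 211 genes in all. A single cell gave 139769 of the 444593 UMIs of the 31 Ppbp-rich cells with the heterozygous mother. Without the cell of most UMIs in each class and library, 42 of 65 list genes were 2-fold higher, of 192 genes in all. RNA quality moved with the classes: Malat1, a long RNA kept in the nucleus, was under 0.1% of UMIs in 3 of 19 Ppbp-rich cells and 1 of 26 Ppbp-free cells with the null mother, and in 20 of 34 and 0 of 37 with the heterozygous mother. Without those cells 45 of 67 list genes were 2-fold higher, of 198 genes in all, and 82 were lower.

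Contractile and cytoskeletal genes held the gene with the largest ratio, Myl9, and 16 of the 20 compared were 2-fold higher in Ppbp-rich cells in both libraries, with median log2 ratios of 1.65 with the null mother and 2.23 with the heterozygous mother. Myl9, the regulatory light chain of myosin, stood at 821 CPM in Ppbp-rich cells and 14.7 in Ppbp-free cells with the null mother, and at 1217 and 2.17 CPM with the heterozygous mother. Cald1, the actin-binding caldesmon, stood at 488 against 14.7 CPM with the null mother and at 805 against 15.2 CPM with the heterozygous mother. Tpm4, a tropomyosin, stood at 1015 against 198 CPM with the null mother and at 1887 against 156 CPM with the heterozygous mother. Myh9, the heavy chain of non-muscle myosin, had 486 CPM against 110.2 with the null mother and 909 against 152 with the heterozygous mother. Tuba8 and Was were among the 4 genes of this list that did not pass, with log2 ratios of 0.06 and 0.45 with the null mother.

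Of adhesion genes 10 of 12 were 2-fold higher in both libraries, with medians of 2.04 with the null mother and 2.38 with the heterozygous mother, and of signalling receptor genes 7 of 9. Clec1b, the podoplanin receptor, stood at 859 against 69.8 CPM with the null mother and at 1388 against 82.4 with the heterozygous mother. Gp6, the collagen receptor, stood at 159 against 3.67 CPM with the null mother and at 265 against 13.01 CPM with the heterozygous mother. Treml1 stood at 1702 against 459 CPM with the null mother and at 1811 against 336 CPM with the heterozygous mother, although it was present in both classes. Over all members it was seen in 19 of 19 Ppbp-rich and 21 of 26 Ppbp-free cells with the null mother. With the heterozygous mother it was seen in 24 of 34 and 35 of 37. Its medians per 10000 UMIs were 16.1 against 3.43 with the null mother and 4.93 against 2.19 with the heterozygous mother.

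Among granule cargo other than Pf4 and Ppbp 6 of 10 genes passed. Thbs1, thrombospondin, stood at 551 against 165 CPM with the null mother and at 1102 against 150 with the heterozygous mother, and F5, coagulation factor V, at 221 against 29.4 CPM with the null mother and at 328 against 21.7 CPM with the heterozygous mother. Vwf, von Willebrand factor, did not pass in both, with log2 ratios of 0.62 with the null mother and 1.19 with the heterozygous mother. Of activation enzymes 4 of 7 passed, led by the platelet lipoxygenase Alox12 at 569 against 14.7 CPM with the null mother and at 812 against 6.50 CPM with the heterozygous mother. Slpi, a protease inhibitor, was outside the lists and among the leading genes, at 827 against 47.7 CPM with the null mother and at 1511 against 56.4 CPM with the heterozygous mother.

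Transcription factors were divided less evenly. Of 10 tested, 3 were 2-fold higher in Ppbp-rich cells in both libraries, where 17% of all 1338 genes compared were. The 3 were Gata1, Lyl1, a basic helix-loop-helix factor, and the small Maf gene Mafg. Gata1 stood at 232 against 58.8 CPM with the null mother and at 209 against 80.2 CPM with the heterozygous mother. Lyl1 stood at 143 against 29.4 CPM with the null mother and at 126 against 39.0 CPM with the heterozygous mother. Zfpm1, with log2 ratios of -0.13 with the null mother and 0.01 with the heterozygous mother, and Mef2c, with -0.13 with the null mother and 0.26 with the heterozygous mother, lay near 0. Runx1 lay below 0 in both, at 151 against 253 CPM with the null mother and 207 against 336 with the heterozygous mother.

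Genes of dividing cells ran the other way. Over all members of each class, the 17 genes of the mitosis and cytokinesis list were summed. They gave 610 CPM in Ppbp-rich cells and 2339 in Ppbp-free cells with the null mother, and 663 and 2360 CPM with the heterozygous mother. Without the 21 cells with another type's RNA, Ppbp-rich cells had 616 CPM with the null mother and 544 with the heterozygous mother. The single genes that follow were again compared without those 21 cells. The 3 list genes with enough UMIs to compare, Mki67, Top2a and Birc5, were all at least 2-fold lower in Ppbp-rich cells in both libraries. Top2a, the topoisomerase of dividing cells, stood at 57.2 CPM in Ppbp-rich cells against 419 in Ppbp-free cells with the null mother, and at 81.0 against 405 CPM with the heterozygous mother. Hist1h1b, a linker histone, stood at 12.7 against 599 CPM with the null mother and at 45.0 against 466 CPM with the heterozygous mother, and Mcm3, a subunit of the replication helicase, at 19.1 against 184 CPM with the null mother and at 11.2 against 193 CPM with the heterozygous mother. Of the replication list's 17 genes 2 had enough UMIs to compare, Mcm3 and Ccnd3, a cyclin, 1 of them lower and 1 higher. Ccnd3 was higher in Ppbp-rich cells, at 549 against 253 CPM with the null mother and at 587 against 288 CPM with the heterozygous mother.

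Per cell, the mitosis list had a median of 0.411 UMIs per 10000 in Ppbp-rich cells with the null mother and 0 with the heterozygous mother, against 21.3 with the null mother and 18.501 with the heterozygous mother in Ppbp-free cells. Any UMI of the list was seen in 14 of 19 Ppbp-rich and 25 of 26 Ppbp-free cells with the null mother, and in 13 of 34 and 37 of 37 with the heterozygous mother. Depth differed between these cells; among those with at least 5000 UMIs the list summed to 618 CPM in 13 Ppbp-rich and 2340.2 in 25 Ppbp-free cells with the null mother, and to 679 CPM in 14 and 2376 in 34 with the heterozygous mother. Among cells with Malat1 of at least 0.1% it summed to 615 CPM in 16 Ppbp-rich and 2365 in 25 Ppbp-free cells with the null mother, and to 794 CPM in 14 and 2360 in 37 with the heterozygous mother. The cells in between had 2024 CPM with the null mother and 2003 with the heterozygous mother, nearer to the Ppbp-free cells, with Pf4 at 37015 CPM with the null mother and 26803 with the heterozygous mother. Apoe, a lipid carrier made by many liver cells, was also lower in Ppbp-rich cells when the 21 cells with another type's RNA were left out. It stood at 31.8 against 220.4 CPM with the null mother and at 8.997 against 247 CPM with the heterozygous mother.

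**Figure D2:**
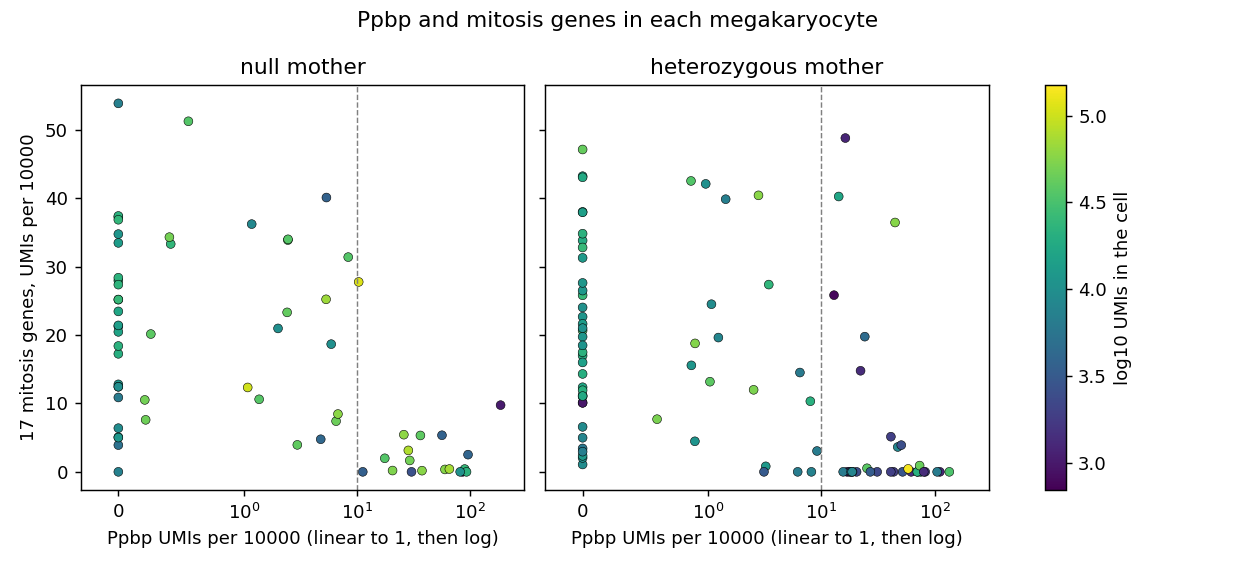
Each point is 1 megakaryocyte, with Ppbp UMIs per 10000 on the x axis (linear up to 1, then log) and the summed UMIs of the 17 mitosis genes per 10000 on the y axis, in the library of the null mother (left) and the heterozygous mother (right); colour gives log10 of the cell's UMIs and the dashed line marks 10 Ppbp UMIs per 10000. To the right of the line most cells are near 0 on the y axis, with medians of 0.411 with the null mother and 0 with the heterozygous mother, whereas the column of Ppbp-free cells at 0 has medians of 21.3 with the null mother and 18.501 with the heterozygous mother.

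A small set of cells had little mitochondrial RNA and little Malat1. In 5 cells with the null mother and 11 with the heterozygous mother, mitochondrial transcripts were under 0.5% of UMIs, a limit set after the values had been seen. Their median depth was 3737 UMIs against 23010 in the remaining megakaryocytes with the null mother, and 2560 against 11793 with the heterozygous mother. Malat1 summed to 264 CPM in them against 5176 in the remaining cells with the null mother, and to 279 against 8319 CPM with the heterozygous mother; it was under 0.1% of UMIs in 13 of the 16. Neat1, another nuclear RNA, summed to 0 against 138 CPM with the null mother and to 62.1 against 116 CPM with the heterozygous mother. Ppbp stood at 5818 against 1469 CPM with the null mother and at 5214 against 1881 CPM with the heterozygous mother, and 14 of the 16 were Ppbp-rich. Whether these barcodes hold whole cells, platelets or fragments was not tested.

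Depth alone ordered the cells differently from Ppbp. With both libraries together and the cells ranked by UMIs, the lowest 53 had a median of 3386 UMIs, the next 52 of 13417 and the highest 52 of 39085. Pf4 summed to 23449, 15665 and 39994 CPM in this order and Ppbp to 2022, 496 and 2057 CPM. The mitosis list summed to 935, 2026 and 1566 CPM. The lowest set held 14 cells of the null mother and 39 of the heterozygous mother, the highest 34 of the null mother and 18 of the heterozygous mother.

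A few members carried little Pf4 for their size. Pf4 was under 10 per 10000 UMIs in 4 cells of the null mother and 5 of the heterozygous mother, and in 4 of these 9 a list of another cell type passed 1% of UMIs. Of these cells 3 of the null mother and 1 of the heterozygous mother were called doublets, against 2 of 50 and 1 of 58 cells with Pf4 of 100 or more. S100a8, a neutrophil granule gene, summed to 24645 CPM in them against 904 in the 50 cells with Pf4 of 100 or more with the null mother, and to 12085 against 383 CPM in 58 cells with the heterozygous mother. The globin gene Hbb-bs summed to 34566 against 139 CPM with the null mother and to 420 against 3174 CPM with the heterozygous mother. Another type's list passed 1% in 3 of the 4 cells of the null mother and 1 of the 5 of the heterozygous mother. The factor genes Fli1, at 104 CPM with the null mother and 266 CPM with the heterozygous mother, and Meis1, at 149 CPM with the null mother and 84.0 CPM with the heterozygous mother, still had UMIs in these sums. These are sums over few cells and not counts of cells that held the genes.

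Between the mothers' genotypes few genes of the megakaryocytes were past 2-fold. Summed over 66 cells with the null mother and 91 with the heterozygous mother, 4318 genes reached 50 UMIs in whichever library had the higher level, and are called measured; log2 ratios were taken of CPM plus 10, null over heterozygous mother. The median ratio was 0.01, 51.6% of the genes lay above 0 and 95.6% lay within 1.5-fold. With the null mother 31 genes, 0.718%, were at least 2-fold higher and 5, 0.116%, at least 2-fold lower. Of 99 measured genes of the 7 megakaryocyte lists 0 were past 2-fold in either direction, a share near that of all genes; 30 lay above 0 and 69 below, with a median of -0.13 and a range of -0.67 to 0.59.

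Among granule cargo 5 of 13 genes lay above 0 and 8 below. Pf4 itself stood at 38428 CPM with the null mother and 26990 with the heterozygous mother, a log2 ratio of 0.51 (0.49 to 0.53), and chose the cells. Thbs1 was the lowest, at 326 CPM with the null mother and 506 CPM with the heterozygous mother with a log2 ratio of -0.62 (-0.77 to -0.47), and Vwf stood at 271 CPM with the null mother and 347 CPM with the heterozygous mother. Tgfb1, a growth factor of the granule, stood at 887 CPM with the null mother and 814 CPM with the heterozygous mother. Of 21 cytoskeletal genes 2 lay above 0 and 19 below, with a median of -0.24, from Tubb1 at -0.64 (-1.10 to -0.18) to Tuba8 at 0.24. Ppbp-rich cells were 28.8% of members with the null mother and 37.4% with the heterozygous mother, but held 37.0% of the members' UMIs with the null mother and 32.2% with the heterozygous mother; Ppbp-free cells held 21.1% with the null mother and 38.0% with the heterozygous mother. The part of the classes in the list medians was not tested.

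Of 18 adhesion genes 7 lay above 0 and 11 below, with a median of -0.12; Itga2, a chain of the collagen integrin, was the lowest at -0.57 and the junction protein Esam the highest at 0.46. Gp5 stood at 498 CPM with the null mother and 479 CPM with the heterozygous mother, Cd9, a tetraspanin, at 929 CPM with the null mother and 938 CPM with the heterozygous mother, and Clec1b at 406 CPM with the null mother and 563 CPM with the heterozygous mother. Of 11 signalling receptor genes 4 lay above 0, up to the thromboxane receptor Tbxa2r at 117 CPM with the null mother and 81.6 CPM with the heterozygous mother, and 7 below, down to the G protein gamma subunit Gng11 at 309 CPM with the null mother and 473 CPM with the heterozygous mother.

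Transcription factors ranged from Gata2 at -0.51 (-0.95 to -0.06) to Gata1 at 0.25 (-0.01 to 0.51), with 5 of 14 above 0. Of 11 activation enzymes 2 lay above 0 and 9 below, from the kinase Lyn at -0.67 (-0.99 to -0.35) to Lat at 0.16. Of 11 genes for granule formation and release 5 lay above 0 and 6 below, from Stx11, a fusion protein, at -0.21 to Hps1, a protein of organelle biogenesis, at 0.59 (0.14 to 1.04). Of 13 measured replication genes 1 lay above 0 and 12 below, with a median of -0.29, and of 13 mitosis genes 2 lay above and 11 below, with a median of -0.09; 0 were past 2-fold. Mki67 stood at 269.7 CPM with the null mother and 299 CPM with the heterozygous mother.

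**Figure D3:**
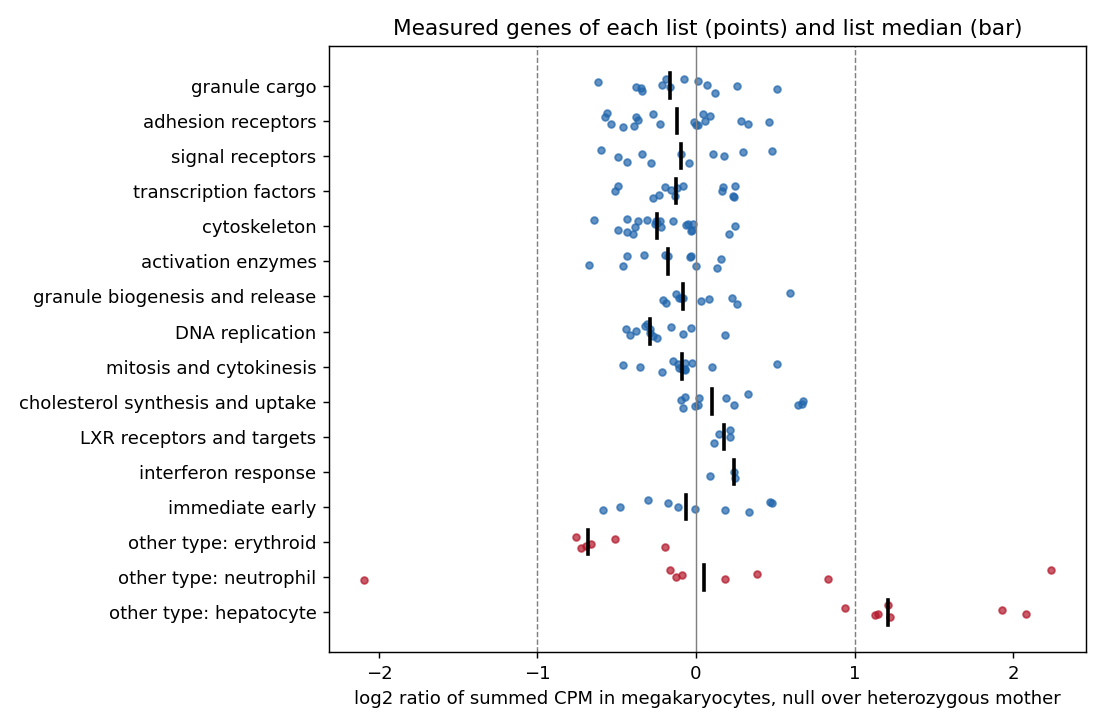
Each point is 1 measured gene of a list, placed by its log2 ratio of summed CPM in megakaryocytes, null over heterozygous mother; black bars are list medians and dashed lines mark 2-fold. The 7 megakaryocyte lists at the top stay within the dashed lines, while the hepatocyte list at the bottom lies to the right with a median of 1.21.

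The genes past 2-fold were mostly those of other cells. Ttr, the hepatocyte carrier of thyroid hormone, stood at 778 and 176 CPM in megakaryocytes of the null and the heterozygous mother, a log2 ratio of 2.08, and Apoa2, an apolipoprotein, at 467 CPM with the null mother and 115 CPM with the heterozygous mother. Chil3 and Elane, genes of neutrophil precursors, had 102 and 154 UMIs with the null mother against 3 and 14 with the heterozygous mother. Of the 31 higher genes, 30 had lower CPM in megakaryocytes than in the other cells of both libraries, and 24 were past 2-fold higher with the null mother in those other cells too. In the other cells, Ttr stood at 5063 CPM with the null mother and 1395 with the heterozygous mother. The 5 lower genes were led by Retnlg, a neutrophil gene, at 8.04 CPM with the null mother and 67.2 CPM with the heterozygous mother, and included Cd24a, Tfrc, the transferrin receptor of red cell precursors, and Ifitm6.

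The hepatocyte list summed to 5351 CPM in megakaryocytes of the null mother and 2190 in those of the heterozygous mother, beside 32690 CPM in the other cells with the null mother and 10917 with the heterozygous mother. All 7 of its measured genes lay above 0, with a median of 1.21. The erythroid list summed to 5388 CPM beside 50206 in the other cells with the null mother and to 8100 beside 67315 CPM with the heterozygous mother, with all 6 measured genes below 0 and a median of -0.68. The neutrophil list summed to 6237 beside 64501 CPM with the null mother and to 5965 beside 72210 CPM with the heterozygous mother. The macrophage list, kept low by the rule, summed to 5.36 beside 358 CPM with the null mother and to 4.80 beside 153 CPM with the heterozygous mother. In 11 cells of the null mother and 10 of the heterozygous mother at least 1 of these lists passed 1% of UMIs.

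Without those 21 cells 2 of the 31 higher genes remained past 2-fold, Creld2 and Xist. Of the others 22 changed sign, 15 of which no longer reached 50 UMIs. These cells were left out for RNA of hepatocytes, neutrophils or other types, and 7 of the 31 genes are in the lists used for that, so the fall of such genes follows from the choice of cells. Ttr then stood at 35.1 CPM with the null mother and 61.2 CPM with the heterozygous mother, a log2 ratio of -0.66, and Apoa2 at 25.3 CPM with the null mother and 47.1 CPM with the heterozygous mother. Of the 5 lower genes 0 remained both past 2-fold and measured: Cd24a stood at a log2 ratio of -1.79 on 2 UMIs with the null mother and 37 with the heterozygous mother, Tfrc was measured at -0.86, and the other 3 had under 50 UMIs. The 7 genes that were then past 2-fold lower were Hbb-bs at 135 CPM with the null mother and 595 CPM with the heterozygous mother, Hba-a1, Hbb-bt, Hba-a2, Serpina1e, Prtn3 and Ahsg, which are globin, hepatocyte and neutrophil genes and not megakaryocyte genes. Scrublet called 6 megakaryocytes of the null mother and 3 of the heterozygous mother doublets. Without them 5 genes were past 2-fold higher and 13 lower, on sums of fewer cells and so not of the same 4318 measured genes.

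**Figure D4:**
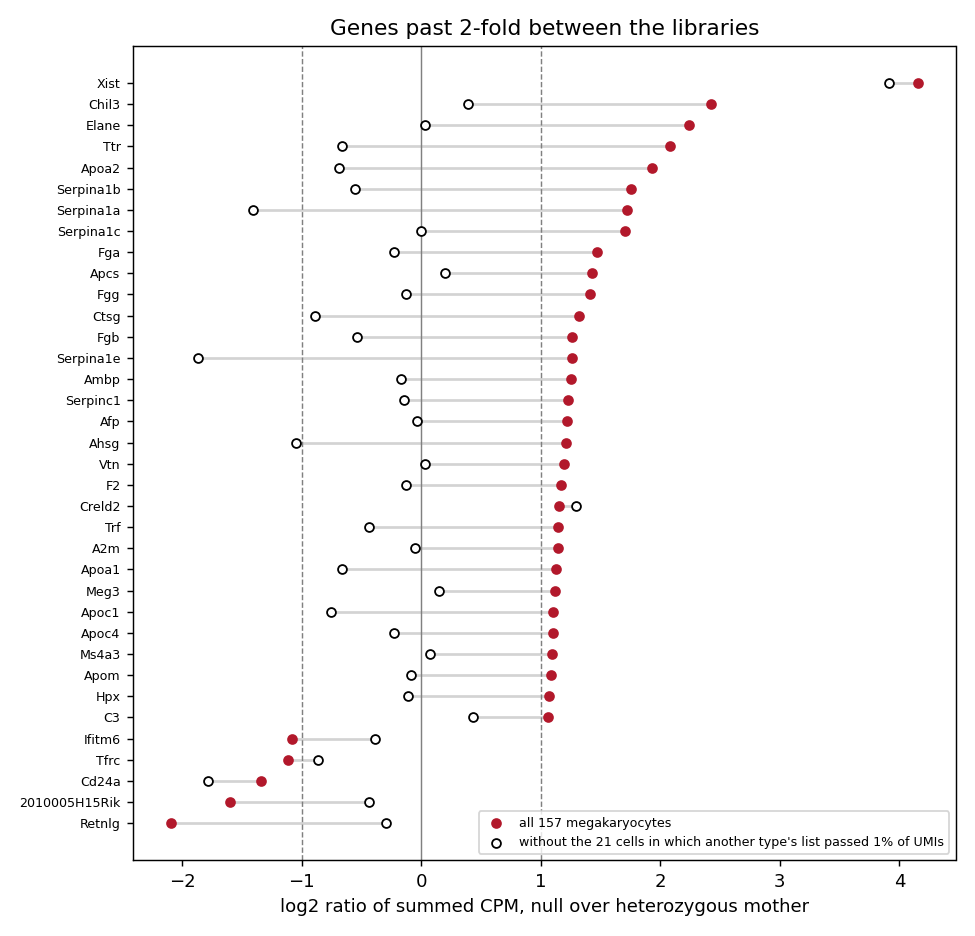
Genes past 2-fold between the libraries, each with its log2 ratio over all 157 megakaryocytes (filled) and without the 21 cells in which another type's list passed 1% of UMIs (open), null over heterozygous mother; dashed lines mark 2-fold. Most open points fall near 0 or cross it, and 22 of the 31 higher genes then had fewer than 50 UMIs; Creld2 and Xist stay to the right; Xist is set against 0 UMIs, so its position depends on the 10 CPM added.

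Xist, the RNA of the inactive X, had 314 UMIs in megakaryocytes of the null mother and 0 in those of the heterozygous mother. By Xist and Y-linked UMIs, 19 of 66 cells were female and 29 male with the null mother, while 0 of 91 were female and 51 male with the heterozygous mother; the rest had UMIs of neither or both. Fetal sex and the mother's genotype therefore cannot be told apart for cells of both sexes. Among male cells alone 7 genes were past 2-fold higher with the null mother and 16 lower. These sums hold fewer cells, so the counts do not stand against the same 4318 measured genes.

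Creld2, a protein of the endoplasmic reticulum whose gene is induced by misfolded proteins, was the 1 higher gene with more CPM in megakaryocytes than in the other cells of both libraries. It stood at 136 CPM (119 to 153) with the null mother and 55.5 CPM (44.1 to 69.0) with the heterozygous mother, a log2 ratio of 1.15 (0.83 to 1.48). Without the 21 cells above it stood at 147 CPM with the null mother and 54.1 CPM with the heterozygous mother. In the other cells it stood at 38.6 CPM with the null mother and 22.4 CPM with the heterozygous mother, so a difference in the same direction was present outside megakaryocytes.

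Sterol genes were examined because the mothers differed in a sterol enzyme. Of 25 genes of cholesterol synthesis and uptake 12 were measured in megakaryocytes; 8 lay above 0, 4 below and 0 past 2-fold, with a median of 0.10. Cyp51, which removes a methyl group from lanosterol, stood at 44.0 CPM with the null mother and 23.995 CPM with the heterozygous mother (log2 0.67, 0.22 to 1.10), Msmo1, a later enzyme of the same steps, at 57.4 CPM with the null mother and 32.2 CPM with the heterozygous mother (0.67, 0.27 to 1.08), and Fdps, farnesyl diphosphate synthase, at 119 CPM with the null mother and 72.7 CPM with the heterozygous mother (0.64, 0.34 to 0.95). The list summed to 978 CPM in megakaryocytes with the null mother and 834 with the heterozygous mother, a ratio of 1.17 (1.09 to 1.26). In the other cells it summed to 1175 CPM with the null mother and 542 with the heterozygous mother. The 21 cells with another type's list past 1% of UMIs had 1239 CPM with the null mother and 763 with the heterozygous mother. The remaining Ppbp-rich cells had 1108 CPM with the null mother and 974 with the heterozygous mother. Remaining cells with Ppbp above 0 and under 10 per 10000 had 827 and 786 CPM in the same order. All Ppbp-free cells, some of the 21 included, had 797 and 786 CPM. The 4 measured genes of the 11 in the LXR list, the receptors that oxysterols activate and their targets, all lay above 0, with a median of 0.18 and none past 2-fold. In the 21 cells in which another type's list passed 1% of UMIs, the LXR list summed to 1676 CPM with the null mother and 1258 with the heterozygous mother. Among the remaining Ppbp-rich cells it summed to 368 CPM with the null mother and 391 with the heterozygous mother. In the remaining cells with Ppbp above 0 and under 10 per 10000, the sums were 392 CPM with the null mother and 393 with the heterozygous mother. For all Ppbp-free cells, some of the 21 included, they were 885 CPM with the null mother and 815 with the heterozygous mother. All 3 measured genes of 10 in the interferon list lay above 0, led in level by Ifitm3 at 1019 CPM with the null mother and 859 CPM with the heterozygous mother, and the 10 measured immediate early genes divided 4 above and 6 below, from Fosb at -0.59 to Fos at 0.48.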

How the data were processed

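Raw UMI counts per gene and cell, and a table that assigns each cell to a library, were deposited by the authors. The submitters' processing notes name Cell Ranger 3.0.0, Seurat 4.3.0 and mm10, and every deposited cell has at least 500 UMIs, per the file itself; doublet removal is not given in the sources used here. All 43351 cells of 31053 genes were read, and cell sums equalled the deposited totals.

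Counts were summed over the megakaryocytes of a library and divided by their total (CPM). Ratios are log2 of CPM plus 10, null over heterozygous mother, and a gene counts as measured if it reached 50 UMIs in whichever library had the higher CPM; intervals of a ratio are exact conditional Poisson intervals. With 1 library a group no test was run, and cells were not used as replicates. The procedure was tested on simulated data with known folds. Doublets were called per library with Scrublet (expected rate 6%), which called 6.54% of cells with the null mother and 4.26% with the heterozygous mother, and were kept outside the alternatives. Comparison cells had Klf1, Epor and no Pf4 (erythroid), or Cpa3 with Mcpt8, Ms4a2 or Fcer1a and no Pf4 (basophils and mast cells).

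Members and gene lists were chosen with earlier results of these data known. The genes named were the rule genes, up to 3 of the highest and 3 of the lowest ratios and the highest levels in each list, the 10 largest and 10 smallest ratios over all genes, the 15 that led megakaryocytes over other cells, and others named as chosen afterwards; a few listed genes enter the counts and sums but are not reported here. Ppbp classes and the leaving out of cells with RNA of other types were also decided after the values were seen. Alternatives covered the pseudocount, UMI minimum, scaling, weights, sex, doublets, cell filters and rule limits. Python 3.11.15 was used with numpy 2.4.6, pandas 2.3.3, scipy 1.17.1, scanpy 1.11.5 and matplotlib 3.10.9.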

Additional observations from a re-analysis of the deposited data

How the results depend on the processing

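No paired analysis was possible because each group is 1 library. The share ratio stayed within its main interval under all 11 alternatives run, and the median over the 7 megakaryocyte lists, -0.13, under all 18. The count of genes past 2-fold higher with the null mother, 31, became 50 with a pseudocount of 1 CPM, 14 with a minimum of 200 UMIs, 54 with the mean of CPM over cells, 7 with male cells only, 5 without called doublets, 10 with no C1q UMI and 2 without cells in which another type's list passed 1% of UMIs. The count lower, 5, became 14, 0, 40, 16, 13 and 16 under the first 6 of these, 18 with a minimum of 20 UMIs, 17 with Pf4 of at least 10 UMIs, 11 with haemoglobin at most 2% of UMIs and 12 in cells of 5000 to 50000 UMIs. Without called doublets Ttr turned to -0.12, the log2 ratio of Serpina1a to -0.0486 and Fga to -0.28; without cells carrying another type's RNA Ttr turned to -0.66 and Apoa2 to -0.69. Some of the alternatives hold fewer cells or change the UMI minimum, so the counts do not share 1 number of measured genes. Otherwise the cause was not tested. Of 2934 values of 178 genes followed under these alternatives 2638 stayed inside the main interval, 291 fell outside and 5, of genes past 2-fold, changed sign. These 5 do not count every gene past 2-fold. Without cells carrying another type's RNA, 22 of the 31 higher genes changed sign, 15 of which no longer reached 50 UMIs. Of 276 list medians 42 moved. The Ppbp division gave 192 to 247 genes higher and 79 to 122 lower, against 227 and 83. Depth limits genes under 50 UMIs, and 1 library a group leaves the spread between litters unknown.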
